A study of Mus musculus with 6 samples.

Results

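Galectins are lectins that bind galactose-containing sugars on cell-surface and secreted glycoproteins, and TIM-3, encoded by Havcr2, is an inhibitory receptor of T cells and myeloid cells for which galectin-9 is a known ligand. Transcripts of 4 galectin genes (Lgals1, Lgals3, Lgals8, Lgals9), of the galectin-3 binding protein gene Lgals3bp and of Havcr2 were followed in mouse macrophages given RIP1i or DMSO. These 6 genes were chosen by symbol, and all 6 were found among the 52459 genes of the table and passed the filter on low counts. Galectin-3 is abundant in macrophages and binds damaged lysosomes as well as surface glycans, galectin-8 and galectin-9 carry a pair of sugar-binding domains on 1 chain, and galectin-1 has a single domain and acts as a dimer.

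The cells were marrow-derived macrophages of C57BL/6 mice, grown with GM-CSF and exposed overnight from day 7 to DMSO, the solvent, or to RIP1i, an inhibitor of the kinase RIP1 whose compound name and dose the labels leave out. Each group held 3 libraries of total RNA, and the labels do not say whether these were separate cultures or animals, so p-values measure only the spread between libraries. GM-CSF cultures are a mixed model, since this cytokine also supports dendritic cells and granulocytes. The design asks which transcripts of these cells differ with the inhibitor.

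Library totals ran from 40264902 to 44862310 counts. Of 10 macrophage markers, all were detected in every library, among them Csf1r at means of 1468 and 1401 CPM (read counts scaled to library size, with TMM factors) in DMSO and RIP1i. The summed level of 12 stromal markers was 106 to 417 CPM in DMSO and 96.9 to 276 CPM in RIP1i, with the extremes in DMSO replicate 2 and RIP1i replicate 2, and that of 10 neutrophil markers was 228 to 627 CPM and 224 to 660.0 CPM. RIP1i replicate 2 was also the highest library for Lgals1, Lgals3, Lgals8 and Havcr2 and the lowest for Lgals3bp. The margin was narrow for Lgals1 and Lgals8, and for Lgals9 this library lay among the others. Values without it, or without another single library, are given where they differ most. In RNA from whole cultures, fewer cells of a type and less RNA per cell cannot be told apart.

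No difference in the 6 genes between RIP1i and DMSO libraries passed the test, and the log2 fold changes ran from -0.075 for Lgals9 to 0.16 for Havcr2. With the quasi-likelihood test of edgeR, 0 of 6 had a Benjamini-Hochberg adjusted p under 0.05, where 0% of the 14857 genes tested did. At an unadjusted p under 0.05 there was 1, Havcr2, where 6.21% of all genes lay. Havcr2 was also the 1 gene whose RIP1i libraries all lay above the DMSO libraries, as 7.36% of all genes did, and 0 of 6 lay wholly below, as 6.18% of all genes did. The genes were measured closely: the 95% interval of the fold change stayed within 1.5-fold in either direction for 6 of 6, against 73% of all genes. Of the 6, 4 were fitted higher in RIP1i and 2 lower, where 51% and 49% of all genes were, and their median log2 fold change was 0.041, beside 0.0025 over all genes.

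**Figure D1:**
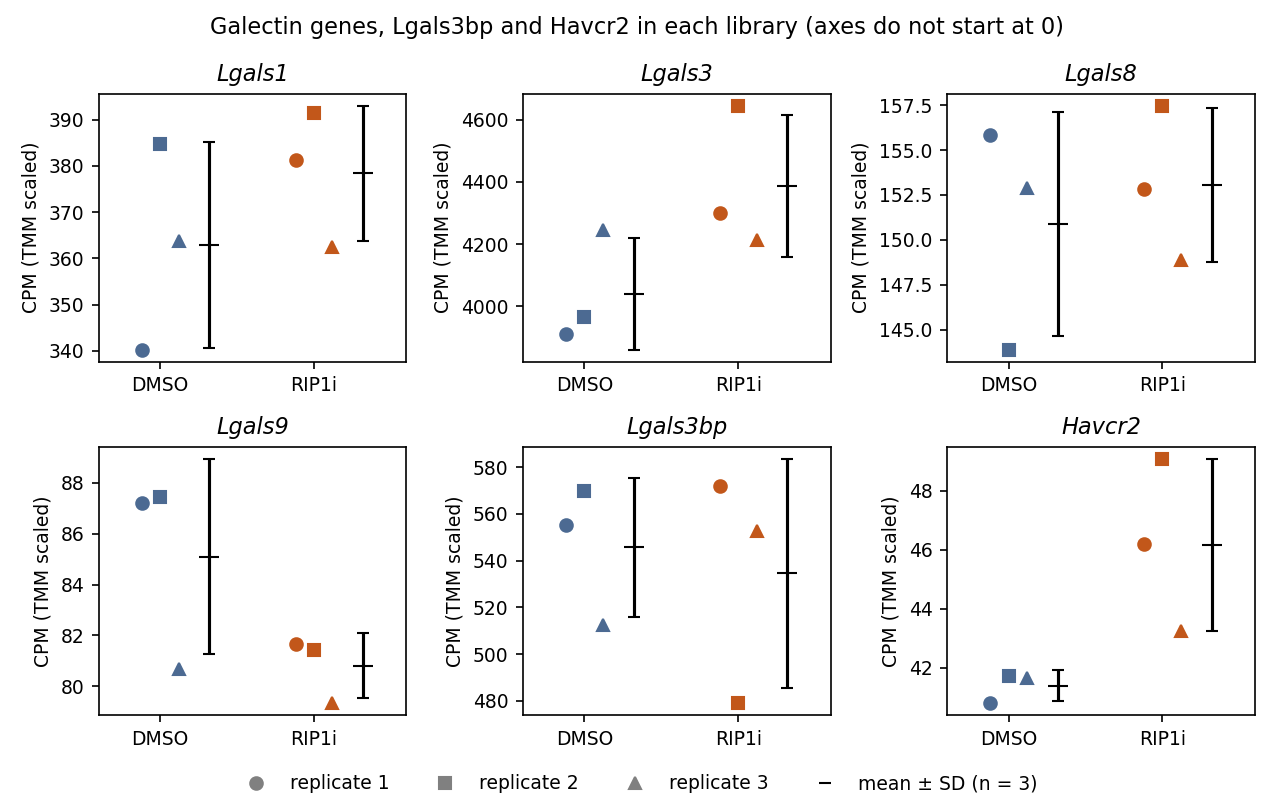
CPM of the 6 genes in each library (y axes, which do not start at 0), with symbols for replicates 1 to 3 and the mean ± SD of each group (n = 3). Havcr2 is the 1 gene whose groups do not overlap, and RIP1i replicate 2 is the highest library for Lgals1, Lgals3, Lgals8 and Havcr2 and the lowest for Lgals3bp.

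The levels of these genes differed far more from each other than between the groups. On the FPKM scale, which divides by gene length, Lgals3 was highest at 2096 to 2508 FPKM over the 6 libraries, the 18th highest of the 14857 genes tested. Lgals1 followed at 424 to 491 FPKM and Lgals3bp at 169 to 200 FPKM. Lgals8, at 38.9 to 42.8 FPKM, and Lgals9, at 36.8 to 40.8 FPKM, were neighbours whose ranges overlapped, with Lgals8 above Lgals9 in 5 of 6 libraries. Havcr2 was lowest at 14.9 to 18.1 FPKM, and every other step in this order held in 6 of 6 libraries. Transcripts of Lgals3 made up 79.2% to 81.4% of the FPKM summed over the 10 galectin genes of the table, and those of Lgals1 made up 15.9% to 17.8%.

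**Figure D2:**
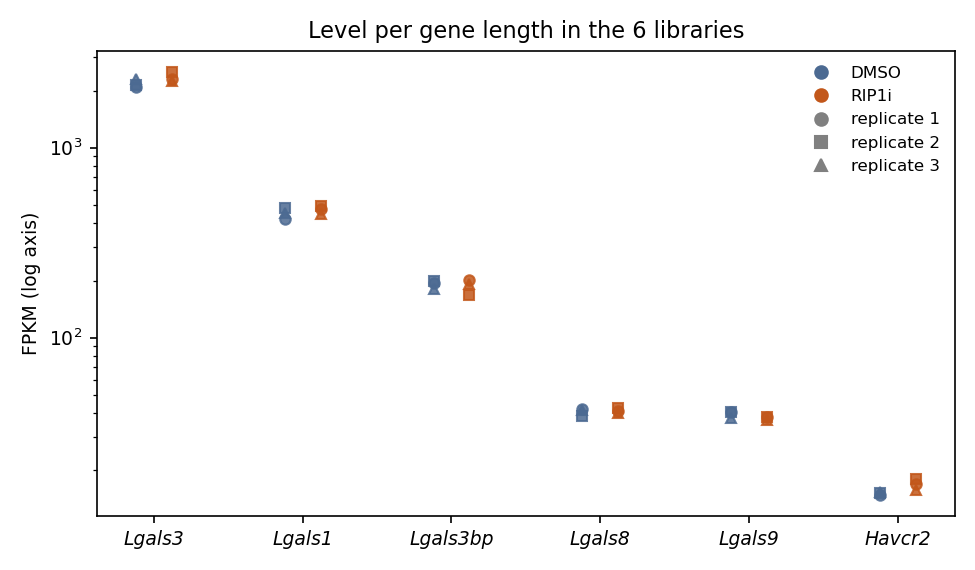
FPKM of the 6 genes on a log axis, ordered by their mean, with 1 symbol per library and the groups in 2 colours. The steps between genes are larger than the spread of libraries except between Lgals8 and Lgals9, which overlap.

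The remaining galectin genes had few or no counts. Lgals4, known from the intestine, had 14 to 24 counts and Lgalsl, a galectin-like gene, 33 to 57 counts in a library, and neither passed (edgeR log2 fold change -0.26 ± 0.26 and 0.083 ± 0.23, SE). Leaving out single libraries gave -0.45 to -0.15 for Lgals4 and -0.081 to 0.26 for Lgalsl, which turned below 0 without RIP1i replicate 2 or DMSO replicate 3. Lgals2 had 0 or 1 count. Lgals7, Lgals12 and the lens gene Grifin had 0 counts in every library, which allows up to 0.0669 to 0.0745 CPM at these depths, for counting error only. Of the other TIM receptors, Havcr1 (TIM-1) had 0 or 1 count, Timd2 had 0, and Timd4 (TIM-4), a phosphatidylserine receptor of resident macrophages, had 0 to 3.

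Havcr2, the receptor gene, lies on chromosome 11 at 46454935 to 46481255 on the plus strand (GRCm38, GENCODE M21). It stood at 40.8, 41.7 and 41.7 CPM in DMSO replicates 1 to 3 and at 46.2, 49.1 and 43.2 CPM in RIP1i replicates 1 to 3. All RIP1i libraries were above all DMSO libraries, RIP1i replicate 3 by the smallest margin. The means were 41.4 ± 0.513 and 46.2 ± 2.92 CPM (SD, n = 3), a fold of 1.12 with a 95% interval from 1.02 to 1.21. The log2 fold change was 0.16 ± 0.053 (SE), with an edgeR p of 0.0192 that became 0.777 after adjustment over all genes. It was 0.10 without RIP1i replicate 2 (edgeR adjusted p = 0.694). Without RIP1i replicate 3 the unadjusted edgeR p was 0.00433, and without any other single library it was 0.0517 to 0.0864, above 0.05. The DMSO libraries varied by 1.24% (coefficient of variation) and the RIP1i libraries by 6.32%, where counting error alone gives at most 2.44%.

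Markers of other cells that carry TIM-3 were set beside this gene. Of 12 T and NK cell markers, 8 were too low to be tested. Among them were the T cell receptor complex genes Cd3d, Cd3e and Trac with at most 2 counts in any library, and Cd3g with 1 to 7. Of the 4 tested, 3 were fitted lower, Cd4 (50 to 105 counts), Klrb1c (54 to 76) and Cd2 (22 to 44). The T cell gene Cd5, with 9 to 15 counts, was fitted higher (log2 fold change 0.60 ± 0.26, SE, edgeR adjusted p = 0.786). Every RIP1i library of Cd5 lay above every DMSO library, as in 7.36% of all genes, at counts where a few reads decide this. The summed level of the list was 4.36 to 5.13 CPM in DMSO and 4.21 to 4.78 CPM in RIP1i. Of 10 dendritic cell markers, 9 were tested, 7 were fitted higher and 0 passed. Their summed level, most of it from the integrin gene Itgax, was 1300.0 to 1496 CPM in DMSO and 1421 to 1610.2 CPM in RIP1i, highest in RIP1i replicate 2, as for Havcr2, and without that library 4 of 9 were fitted higher. None of the 10 was at 0 in every library, though Xcr1 had 3 to 9 counts, and the part of dendritic cells in the Havcr2 values was not tested. Among the 10 macrophage markers, 2 were fitted higher and 8 lower (median log2 fold change -0.051), 0 passed, and the part of macrophages was not tested. Of 10 transcripts used to follow RNA quality and handling, 7 had lower fitted levels and 0 passed. In edgeR, 2 had an unadjusted p under 0.05 (6.21% of all genes). They were Neat1 (-0.41 ± 0.12, SE, and -0.25 without DMSO replicate 1) and Fos (-0.17 ± 0.057). The same 2 lay wholly lower (6.18% of all genes). The part of RNA quality and handling in the Havcr2 values was not tested either.

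Lgals9, the ligand gene, lies on chromosome 11 at 78962974 to 78984946 on the minus strand. It stood at 87.2, 87.4 and 80.7 CPM in the DMSO libraries and at 81.6, 81.4 and 79.3 CPM in the RIP1i libraries. DMSO replicates 1 and 2 were the highest, while DMSO replicate 3 lay among the RIP1i libraries, so the groups overlapped. The means were 85.1 ± 3.84 and 80.8 ± 1.27 CPM (SD, n = 3). On the log2 scale the fold change was -0.075, its interval reaching from -0.18 to 0.028 (edgeR adjusted p = 0.805). Without DMSO replicate 3 it was -0.12 and the groups no longer overlapped, as for 25.3% of all genes in that set. The receptor and its ligand were fitted in opposite directions, and neither difference passed.

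Lgals9 and Lgals3bp are both known as interferon-inducible genes, and the start regions of these genes and of Havcr2 are shown for the letters of interferon response motifs. Of the 6 genes, 5 had a RefSeq window of 250 bases before and 50 after the start (GRCm38.p6). Both strands were searched for the interferon-stimulated response element (GAAA, any 2 bases, GAAA), the IRF core AANNGAAA, which every such element contains, and the STAT site TTCNNNGAA, present in 3.44%, 23.9% and 8.3% of 32851 windows. Matches are in capitals, and the stretches read 5′ to 3′ on the strand of the gene. The long stretches of Lgals9 (chr11:78984947-78985174) and Havcr2 (chr11:46454681-46454930) lie before the starts of both annotations. The short ones surround the motif that starts 16 bases after the RefSeq start of Lgals9 (chr11:78984890-78984919) and the core 14 bases before the RefSeq start of Lgals3bp (chr11:118401954-118401983).
Lgals9: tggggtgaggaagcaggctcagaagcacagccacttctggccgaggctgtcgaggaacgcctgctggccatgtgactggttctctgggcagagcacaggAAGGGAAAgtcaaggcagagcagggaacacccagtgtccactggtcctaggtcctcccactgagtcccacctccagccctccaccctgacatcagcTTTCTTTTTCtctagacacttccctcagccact
Lgals9, after the start: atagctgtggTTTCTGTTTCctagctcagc
Lgals3bp: gttttctgaaAATCGAAActaggtgaggtt
Havcr2: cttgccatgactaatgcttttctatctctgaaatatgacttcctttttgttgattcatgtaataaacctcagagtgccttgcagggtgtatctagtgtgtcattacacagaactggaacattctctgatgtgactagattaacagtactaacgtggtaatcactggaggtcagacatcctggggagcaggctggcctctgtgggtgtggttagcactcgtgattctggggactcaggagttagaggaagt
The Lgals9 window held the response element at 2 places, both on the strand opposite to the gene, and a further IRF core 151 bases before the start. Lgals3bp held the IRF core alone, before its RefSeq start but after its GENCODE start (118402092). The windows of Lgals3, Lgals8 and Havcr2 held none of the 3 motifs. These are matches of letters and do not show binding.

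Lgals3bp encodes a secreted glycoprotein that binds galectin-3 and lies on chromosome 11 at 118392751 to 118402092 on the minus strand. It stood at 555, 570 and 512 CPM in the DMSO libraries and at 572, 479 and 553 CPM in the RIP1i libraries. RIP1i replicate 2 was the lowest of all libraries and RIP1i replicate 1 the highest. The log2 fold change was -0.030 with an interval from -0.20 to 0.15 (edgeR adjusted p = 0.952), and it turned to 0.033 without RIP1i replicate 2 and to 0.063 without both libraries of extreme stromal level. The summed stromal marker level was 235, 417 and 106 CPM in the DMSO libraries and 276, 96.9 and 216 CPM in the RIP1i libraries, so DMSO replicate 3 and RIP1i replicate 2 were lowest in stromal markers and in Lgals3bp alike. A list of 20 interferon genes summed to 679, 757 and 642 CPM in DMSO and 642, 475 and 654 CPM in RIP1i, again lowest in RIP1i replicate 2. The part of either in the Lgals3bp values was not tested. In the interferon list, chosen with its direction known, 20 of 20 members were fitted lower (median log2 fold change -0.32), 7 at an unadjusted p under 0.05 (6.21% of all genes), 9 lay wholly lower (6.18% of all genes), and 0 passed. The median was -0.17 without RIP1i replicate 2 and -0.068 without both libraries of extreme stromal level, where 14 of 20 were fitted lower. Beside the all-library median of -0.32, Lgals9 stood at -0.075 and Lgals3bp at -0.030.

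**Figure D3:**
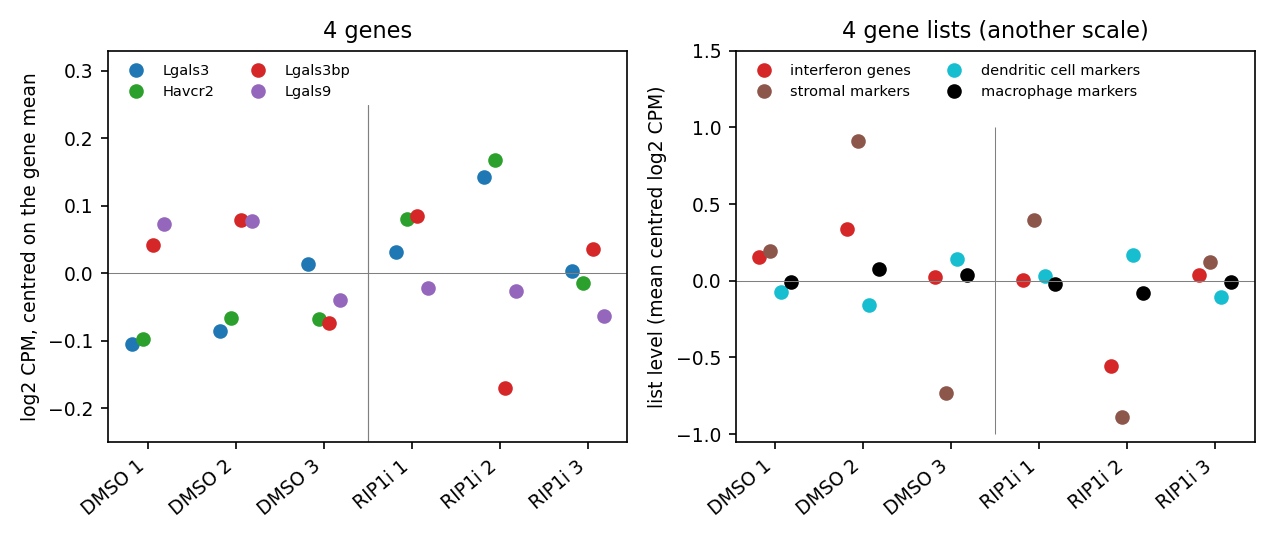
Values per library, with log2 CPM of Lgals3, Havcr2, Lgals3bp and Lgals9 centred on the mean of each gene (left) and the mean centred log2 CPM of 4 gene lists on a wider axis (right). RIP1i replicate 2 holds the highest Lgals3 and Havcr2 values, the lowest Lgals3bp value, and the lowest interferon and stromal levels.

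Lgals3, the most abundant of the 6, lies on chromosome 14 at 47367751 to 47386160 on the plus strand. It stood at 3910.0, 3964 and 4246 CPM in the DMSO libraries and at 4299, 4646 and 4215 CPM in the RIP1i libraries. RIP1i replicate 2 was highest, and RIP1i replicate 3 lay just below DMSO replicate 3, so the groups overlapped by this 1 library. The log2 fold change was 0.12 ± 0.062 (SE) with an interval from -0.025 to 0.26 (edgeR adjusted p = 0.786). It was 0.065 without RIP1i replicate 2 and 0.049 without both libraries of extreme stromal level, and without DMSO replicate 3 or RIP1i replicate 3 the groups were apart, as for 25.3% and 23.9% of all genes.

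Lgals1, on chromosome 15 at 78926725 to 78930465 (plus strand), stood at 340, 385 and 364 CPM in the DMSO libraries and at 381, 391 and 363 CPM in the RIP1i libraries. DMSO replicate 1 was the lowest, and the other 5 libraries were intermixed. The log2 fold change of 0.060 (interval -0.070 to 0.19, edgeR adjusted p = 0.878) was 0.0050 without DMSO replicate 1, 0.025 without RIP1i replicate 2 and 0.098 without DMSO replicate 2. Galectin-1 is also abundant in fibroblasts. Lgals1 stood at 385 CPM in DMSO replicate 2, the library highest in stromal markers, and at 391 CPM in RIP1i replicate 2, the lowest in them, and the part of stromal cells was not tested.

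Lgals8, on chromosome 13 at 12439415 to 12464944 (minus strand), encodes the galectin that marks vesicles damaged by bacteria for autophagy. It stood at 156, 144 and 153 CPM in the DMSO libraries and at 153, 157 and 149 CPM in the RIP1i libraries, fully intermixed. The log2 fold change was 0.021 with an interval from -0.083 to 0.12 (edgeR adjusted p = 0.946). It turned to -0.019 without DMSO replicate 2, to -0.011 without RIP1i replicate 2 and to -0.046 without both, where the RIP1i libraries of Lgals8 lay below the DMSO libraries, as groups were then apart for 41.5% of all genes. Exons of Lgals8 share 155 bases with exons of Heatr1 on the opposite strand, and whether counting used strand is not given in the sources used here, so some reads of the pair cannot be told apart.

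**Figure D4:**
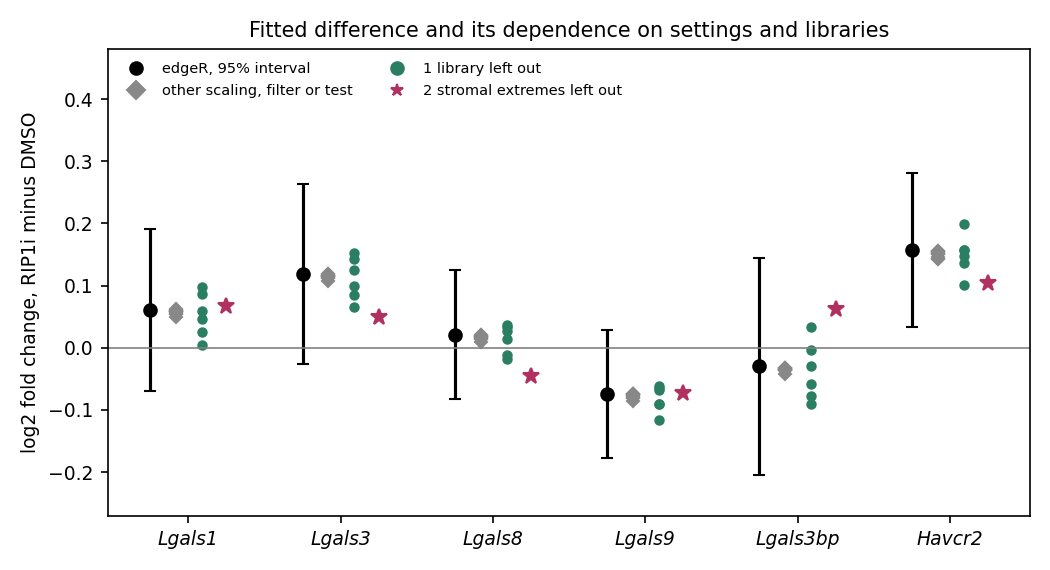
Log2 fold change (RIP1i minus DMSO) of the 6 genes with its 95% interval in edgeR, beside the values under other scalings, filters or tests, with 1 library left out, and without both libraries of extreme stromal level. Havcr2, Lgals3 and Lgals1 stay above 0 and Lgals9 below 0 under each of these, while Lgals8 and Lgals3bp cross 0.

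Partners of TIM-3 and glycoproteins that bind galectins were well expressed and gave no call. Of 11 TIM-3 ligands and adaptors, 10 were tested, 5 were fitted higher and 5 lower, 0 passed, and the median log2 fold change was 0.00061. Hmgb1, a nuclear protein that binds TIM-3 once released, had 0.10 ± 0.074 (SE), and 0.018 without RIP1i replicate 2. Bag6, which holds the tail of TIM-3 in T cells, had -0.041 ± 0.040, and -0.069 to -0.016 when single libraries were left out. The kinase gene Fyn had 0.20 ± 0.15, and 0.0098 without RIP1i replicate 2 to 0.30 without DMSO replicate 3. Ceacam1, another ligand, had -0.0090 ± 0.059.

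Of 19 galectin counter-receptors, 14 were fitted higher and 5 lower (median 0.063), 2 had an unadjusted p under 0.05 (6.21% of all genes), and 0 passed. In 4 of them, Ptprc, Itgb1, Clec7a and Slc3a2, every RIP1i library lay above every DMSO library, as in 7.36% of all genes. Itgb1 was named after its values were seen. Without DMSO replicate 1 the split was 9 higher and 10 lower, with a median of -0.0050. Clec7a encodes dectin-1, a fungal glucan receptor of macrophages that also binds galectin-9. It stood at 1648, 1482 and 1674 CPM in the DMSO libraries and at 1819, 1849.6 and 1927 CPM in the RIP1i libraries, all of the latter being higher. Its log2 fold change was 0.22 ± 0.060 (edgeR adjusted p = 0.777) and 0.16 to 0.25 when single libraries were left out. Slc3a2, the heavy chain of CD98 and a galectin-3 ligand, stood at 157, 157 and 154 CPM in DMSO and at 167, 190 and 166 CPM in RIP1i. Its log2 fold change was 0.16 ± 0.057 (edgeR adjusted p = 0.777), and 0.080 without RIP1i replicate 2. Fn1, fibronectin, had -0.47 ± 0.23, and -0.25 without RIP1i replicate 2.

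Enzymes that build or cap the sugars galectins recognise were fitted higher in 9 of 14 (median 0.045), with 0 called. Mgat2, which acts in the branching of N-glycans, had 0.12 ± 0.051 (SE, edgeR adjusted p = 0.777), and 0.067 without RIP1i replicate 3. C1galt1, which builds the core of O-glycans, had 0.17 ± 0.080, and 0.10 without RIP1i replicate 3. St6gal1, which adds the sialic acid that blocks galectin-1, had 0.17 ± 0.075, and 0.11 without RIP1i replicate 2. Of 12 genes of the response to damaged lysosomes, in which galectin-3 and galectin-8 act, 11 were tested, 7 were fitted higher and 0 passed (median 0.032). Uba6, a ubiquitin-activating enzyme, had 0.22 ± 0.080 and was 0.12 without RIP1i replicate 3. The autophagy receptor Sqstm1 had 0.080 ± 0.072, from 0.023 without DMSO replicate 3 to 0.14 without DMSO replicate 2.

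**Figure D5:**
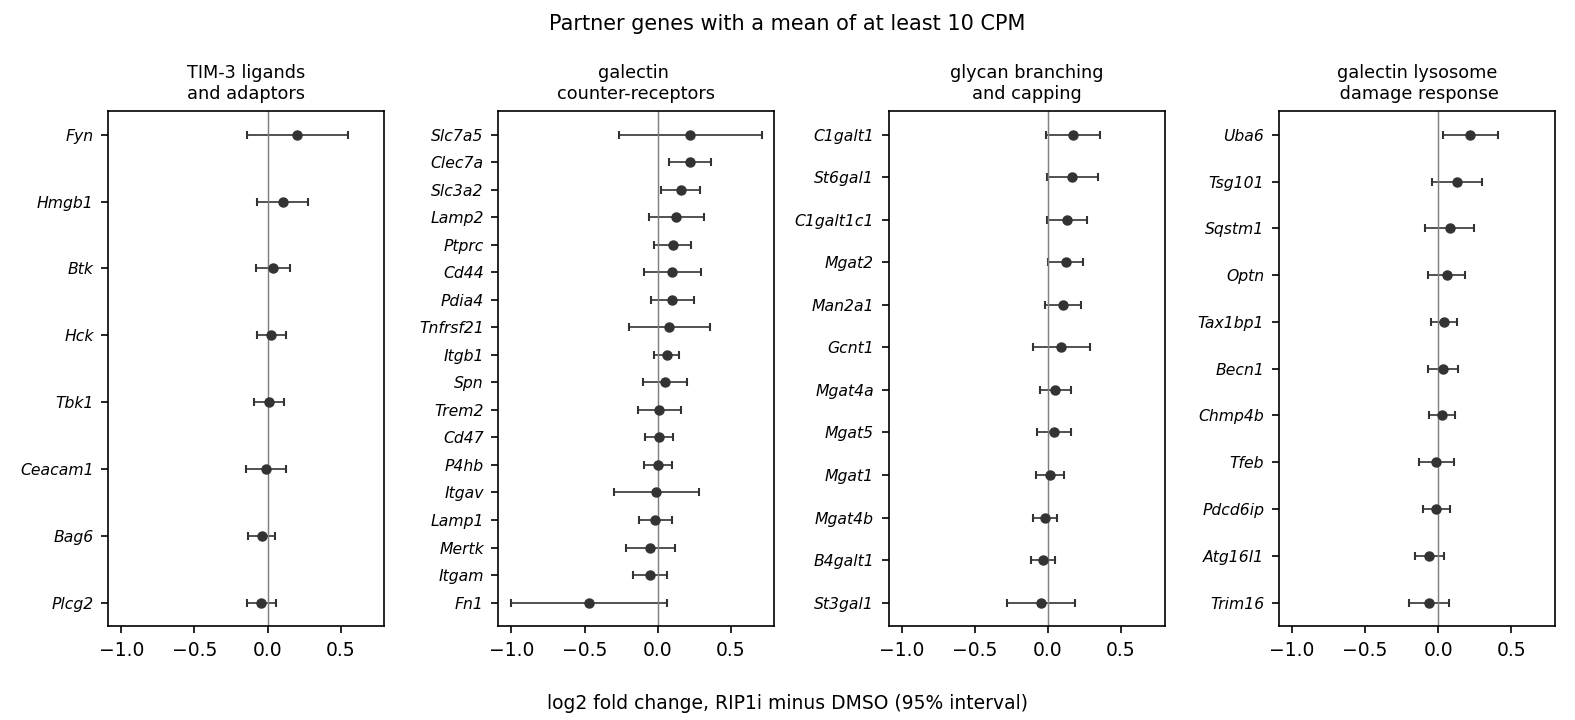
Log2 fold change (RIP1i minus DMSO) with 95% intervals for the partner genes of 4 lists that had a mean of at least 10 CPM. Intervals of Clec7a, Slc3a2, Mgat2 and Uba6 lie above 0, and none of these genes passed after adjustment.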

How the data were processed

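The authors deposited raw read counts per gene and FPKM values for the same 6 libraries. Tools named in the submitters' processing notes, without their roles, are STAR 2.5.3a, CASAVA 1.8.4, DESeq2 1.14.0, Subread 1.4.6-p3 and featureCounts, and the build is mm10. What annotation and strand setting were chosen, and how reads with several matches were handled, is not given in the sources used here. Filtering the counts with filterByExpr (minimum count 10, minimum total 15) left 14857 genes, which were fitted with edgeR 4.0.16 in R 4.3.3 (TMM, quasi-likelihood F test, 2-sided, treatment as the only term, adjusted over all genes). SE came from the F statistic, and intervals are 95%. The procedure was tested on simulated counts whose planted changes were larger than any fitted for the 6 genes, so the simulation does not cover changes of their size. FPKM served for levels between genes. Alternatives used DESeq2 1.42.0, limma 3.58.1, other scalings, filters and library sets. The 6 genes and all gene lists were chosen with earlier results of these data known, and list counts without single libraries were added after seeing the data. Named genes are the 6 members, the 4 genes of smallest p and the 4 of highest FPKM in each list, and for each member the 2 genes of most similar pattern, leaving out predicted genes and pseudogenes. Ceacam1, Itgb1, Xcr1, the T cell genes and the galectin and TIM genes too low to test were named outside this rule, after their values were seen.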

Additional observations from a re-analysis of the deposited data

How the results depend on the processing

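No alternative gave an adjusted p under 0.05 for any of the 6 genes. Over all genes the count of calls was 0 in edgeR, 2 with DESeq2 and 4 with limma on log2(FPKM + 1) without a filter, none of them among the 6. Genes with an unadjusted p under 0.05 numbered 923 in edgeR, 571 in DESeq2 and 910 in limma-voom. Lgals1, Lgals3, Lgals9 and Havcr2 kept their direction in 17 of 17 alternatives each. When single libraries were left out, Lgals8 ran from -0.019 to 0.037 and Lgals3bp from -0.090 to 0.033, both crossing 0, and without both libraries of extreme stromal level they were -0.046 and 0.063. Havcr2 ran from 0.10 to 0.20. With the replicate number as a block, Havcr2 was 0.16 and 413 genes had an unadjusted p under 0.05, with 0 called. Same-numbered libraries did not deviate together (correlations of 0.0058, -0.53 and -0.48 for numbers 1 to 3). So few libraries cannot show whether the numbers pair the samples, and the labels do not say what a shared number means. With 3 libraries a group, an exact permutation test cannot go below 0.1.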

Other observations

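The FPKM ratio of Lgals9 to Havcr2, ligand to receptor, was 2.72, 2.67 and 2.46 in the DMSO libraries and 2.25, 2.11 and 2.34 in the RIP1i libraries, with no overlap. Ratios of 5 of the 15 pairs did not overlap between groups, so this was not particular to ligand and receptor. The pairs share genes and are not independent, and the share over ratios of all genes was not computed. As single genes, 13.5% of all genes had groups that did not overlap, in either direction. An exact 2-sided permutation test gave p = 0.1, the smallest that 3 against 3 libraries allow, and 0.3 after Benjamini-Hochberg adjustment over all 15 pairs of the 6 genes.

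The genes most like each of the 6 over the 6 libraries were taken by Pearson correlation of log2 CPM among the 8310 genes that averaged 10 CPM or more. The points share the library and its stromal and interferon level, and so few libraries give many high values, so these are descriptions. Havcr2 was most like Snrnp27, a splicing factor gene (r = 0.994), and Capns1, a calpain subunit gene (r = 0.990), with 27 genes above 0.95. Lgals3 was most like Twf2 (r = 0.994) and Zfp622 (r = 0.991), with 92 genes above 0.95. Lgals3bp was most like H2-Q6, a class I gene with near-identical relatives, so that its count is uncertain (r = 0.992), and Ctgf, a matrix-associated gene of stromal cells (r = 0.991). Lgals9 was most like the lysosomal chloride transporter gene Clcn7 (r = 0.993), Lgals1 like Yif1b (r = 0.996), and Lgals8 like Runx2 (r = 0.9996).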
